A study of Mus musculus with 8 samples.

Results

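Mucins and mucin-like genes were read out in lacrimal gland (LG) RNA of mice on calorie restriction (CR) and of mice fed ad libitum (AL). The members were 9 genes chosen by symbol, namely Muc1, Muc4, Muc5b, Muc13, Muc15, Muc16, Muc20, Mucl1 and Mucl2. Of the 24557 rows in the count table, 8 carried one of these symbols. Muc16 was not analysed here. At least 1 count was found for 7 members, of 16735 genes with a count in all, and 2 members, Mucl1 and Mucl2, were counted often enough for the test across 11211 genes. All 8 mice were female C57BL/6J. The 4 CR mice received 40% fewer calories for 4 months, starting at 6 to 7 months of age, and the 4 AL mice ate freely over the same months. Exorbital LGs were taken at 10 to 11 months. RNA came from the gland as dissected, so every cell type in that tissue contributes to a library. The libraries are written AL 1 to AL 4 and CR 1 to CR 4.

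Mucins are large glycoproteins whose serine- and threonine-rich stretches carry dense O-linked sugar chains, which hold water and lubricate wet surfaces. Some are secreted and form gels, such as Muc5b and Muc5ac, and others span the membrane of the epithelial cell and form its sugar coat, such as Muc1, Muc4, Muc13, Muc15, Muc16 and Muc20. In the tear film, goblet cells of the conjunctiva supply Muc5ac and the cells of the cornea and conjunctiva carry membrane mucins, while the LG supplies water and soluble proteins. Mucl1 and Mucl2 are short mucin-like genes, and RefSeq lists them also as Spt2 and Spt1.

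Mucl2 carried nearly all reads on the members and is shown with Mucl1, because both encode short chains rich in serine and threonine and their transcripts are alike enough to ask whether reads could be mixed up. Mucl2 (RefSeq Gene ID 20770, with no Gene ID in the count table) lies at chr15:103895855-103899312 on the minus strand of GRCm38 in the GENCODE vM21 annotation. Mucl1 (Gene ID 20771) lies on the same strand at chr15:103751919-103755469, with 140385 bases and 3 genes between them. GENCODE lists both as protein coding, whereas RefSeq lists Mucl1 as a transcribed pseudogene. The first 240 coding bases of each are given 5′ to 3′, with the codons for serine and threonine in capitals.
Mucl2-201: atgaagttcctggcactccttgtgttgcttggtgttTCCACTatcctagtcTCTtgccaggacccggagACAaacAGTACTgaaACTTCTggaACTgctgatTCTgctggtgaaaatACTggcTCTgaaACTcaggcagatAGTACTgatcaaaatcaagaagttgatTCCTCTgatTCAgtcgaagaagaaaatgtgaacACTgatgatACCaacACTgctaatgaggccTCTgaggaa
Mucl1-202: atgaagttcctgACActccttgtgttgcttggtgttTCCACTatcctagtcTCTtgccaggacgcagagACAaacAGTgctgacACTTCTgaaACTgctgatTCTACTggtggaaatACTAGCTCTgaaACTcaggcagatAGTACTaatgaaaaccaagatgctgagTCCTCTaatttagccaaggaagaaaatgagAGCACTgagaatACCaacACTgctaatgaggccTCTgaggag
The whole reading frame of Mucl2-201 has 138 codons, of which 33 encode serine or threonine. The whole frame of Mucl1-202 has 175 codons, of which 43 do. In the stretches shown, 22 of 80 Mucl2 codons and 24 of 80 Mucl1 codons do so. The first 60 coding bases were identical at 59 positions. Over the whole coding sequence, 83.7% of 416 aligned bases were identical, with 113 gap columns.

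By amino acid composition of the longest annotated frame, all 9 members are rich in the residues that accept O-glycans. For the mucin-like pair these frames are those of Mucl2-202 (146 codons) and Mucl1-201 (206 codons), which are longer than the frames shown above. Serine and threonine codons made up 38.1% of Muc4, 35.2% of Muc20, 34.9% of Muc1, 31.9% of Muc16, 30.7% of Muc13 and 26.2% of Muc5b. They made up 24.0% of Mucl2, 23.6% of Muc15 and 22.8% of Mucl1, against a median of 13.2% over 21563 genes. The mucin-like pair differs from the other members in proline, which makes up 6.69% to 10.6% of codons in the Muc genes, 1.37% in Mucl2 and 0% in Mucl1. These shares describe the annotation and not the libraries.

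Reads came from the 3′ ends of transcripts. Each transcript gives reads near 1 end whatever its length, so levels of different genes are compared here as CPM, read counts scaled to a common library size, without division by length. No stretch of 75 bases, the read length, in the last 600 bases of any member was found in the transcripts of another gene. That search read transcripts in the sense direction only, so it does not see overlaps with genes on the other strand. Mucl1 and Mucl2 were close there, with 93.7% of 143 aligned bases identical over the last 150 bases of the transcript. The most alike 75-base stretches of the pair differed by 4 substitutions, and the median over 740 Mucl1 stretches was 28. Muc4, at chr16:32735886-32782391 on the plus strand, and Muc20, at chr16:32777419-32797435 on the minus strand, overlap by 4973 bases at their 3′ ends. Whether reads were counted by strand is not given in the sources used here, so reads of Muc4 and Muc20 may not be told apart. The same holds for Muc13 (chr16:33794037-33819934) with Gm15657 and for Muc15 (chr2:110721340-110739527) with Ano3 on the other strand. Muc1 (chr3:89229057-89233381), Muc5b (chr7:141839070-141873084) and Muc16 (chr9:18495455-18674530) overlap no exon of another gene.

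Between 12051881 and 22156511 reads were counted per AL library and between 13720079 and 19310319 per CR library. A floor of 3 counts corresponded to 0.152 to 0.231 CPM, and this floor and the Clopper-Pearson interval below cover counting error only, while the intervals of fold changes cover the spread between libraries. Markers of the lacrimal epithelium were present in every library, with a summed level of 150930 to 166040 CPM in AL and 60971 to 156560 CPM in CR, mostly Obp1a, an odorant-binding protein of tears. Of the 8 lacrimal markers tested, 4 had a positive and 4 a negative log2 fold change (median -0.10). Markers of the parotid, a salivary gland, were also present, although the tissue is labelled lacrimal. In the study, qRT-PCR on further LG samples also showed the parotid marker Prb1 higher under CR. A gene is called here if its Benjamini-Hochberg adjusted p in edgeR is below 0.05 and its level changes 1.5-fold or more. All 6 parotid markers had a positive log2 fold change and 3 were called higher in CR. Their sum was 236.6 to 23476 CPM in AL and 17876 to 230170 CPM in CR, with the sum of CR 4 the lowest in CR and within the AL range. That sum is mostly Bpifa2 and Amy1, and 4 of the 6 parotid markers (Prb1, Prh1, Prp2 and Prpmp5) were above every AL library in all 4 CR libraries, CR 4 included. Markers of the sublingual and submandibular glands summed to 1.82 to 486 CPM in AL and 256 to 5725 CPM in CR. Of these, Smgc was at 0 and Muc19, the gel-forming mucin of the sublingual gland, had 3 counts in all.

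Of the 2 members tested across genes, edgeR called 0, and 0 had an unadjusted p under 0.05. DESeq2 and limma voom also called 0. Over all genes tested 1.98% were called, 1.2% higher and 0.785% lower in CR. An unadjusted p under 0.05 was found in 16.7% of all genes tested. In 9.79% of all genes tested the libraries of the diets did not overlap, 4.58% with CR higher and 5.2% with CR lower, which no member tested did.

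Mucl2 was the main mucin-like transcript of these glands. It took 14105626 of 129086927 counts in all 8 libraries, and 99.99772% of the counts on the members, while the other 7 members with a row shared 321 counts. In the AL libraries 1 to 4, Mucl2 took 14.0, 13.7, 11.6 and 13.7% of all counts and ranked 2 among all genes in each. In the CR libraries 1 to 4, it took 6.47, 6.03, 6.84 and 13.2% of the counts and ranked 5, 5, 4 and 2. CR 1, 2 and 3 lay below every AL library, and CR 4 lay among them. Sampling of reads adds little to this spread, since the 95% Clopper-Pearson interval for CR 1 runs from 6.46 to 6.48%. The mean share was 13.2 ± 1.12% in AL and 8.15 ± 3.42% in CR (SD, n = 4 each).

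Scaled by relative log expression (RLE) factors, Mucl2 stood at 156640, 134550, 101500 and 153940 CPM in AL 1 to 4. It stood at 65852, 60008, 58014 and 141920 CPM in CR 1 to 4. The groups overlap through CR 4 alone, which is above AL 2 and AL 3. The means were 136660 ± 25419 CPM in AL and 81447 ± 40449 CPM in CR (SD, n = 4 each). The log2 fold change was -0.75 (SE 0.59, 95% interval -2.02 to 0.53), and the gene was not called (edgeR adjusted p = 0.586). An exact two-sided permutation test of the CPM gave p = 0.0857, where 4 against 4 libraries allow no p below 0.0286. The 16 log2 differences between a CR and an AL library ran from -1.43 to 0.48. Between libraries of the same number, Mucl2 was lower in CR in 4 of 4 pairs, with log2 differences from -1.25 to -0.12. The deviations of such libraries over all genes correlated by 0.114 to 0.535, and the labels do not say that the numbers mark pairs. So the lower mean of Mucl2 in CR did not pass the test, and the 95% interval spans a clear fall as well as a rise.

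**Figure D1:**
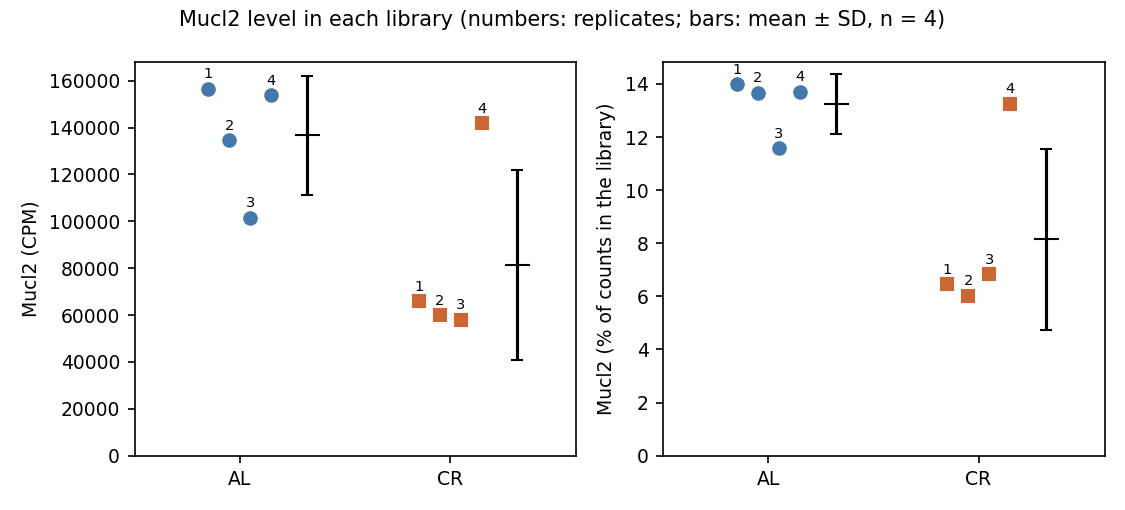
Mucl2 level in each AL and CR library, as CPM (left) and as a percent of all counts (right), both axes starting at 0. Points are libraries with their replicate number, and bars are the mean ± SD (n = 4). CR 1 to 3 sit at 6.03 to 6.84% of counts, below every AL library, and CR 4 sits at 13.2%, inside the AL range.

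Which library is left out changed the size of the Mucl2 difference. Without CR 4 the log2 fold change was -1.16 (SE 0.44, edgeR adjusted p = 0.153), and without any other single library it lay between -0.87 and -0.61. With the replicate number as a block it was -0.84 (adjusted p = 0.357). DESeq2 gave -0.74 (SE 0.29, adjusted p = 0.109), and limma voom, which gives unusual libraries less weight, gave -0.99 (SE 0.27, adjusted p = 0.0597). It was -0.70 (SE 0.53) with unscaled totals and -0.48 (SE 0.46) with unscaled totals that leave out the salivary marker genes, a scale on which the median of all genes shifts by 0.33 to 0.34. With the parotid score (log2 CPM averaged over the parotid markers) as a covariate, it was -0.16 with an SE of 1.04. The estimate was below 0 in each of the 18 alternatives that gave a value, and none of them called it.

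**Figure D2:**
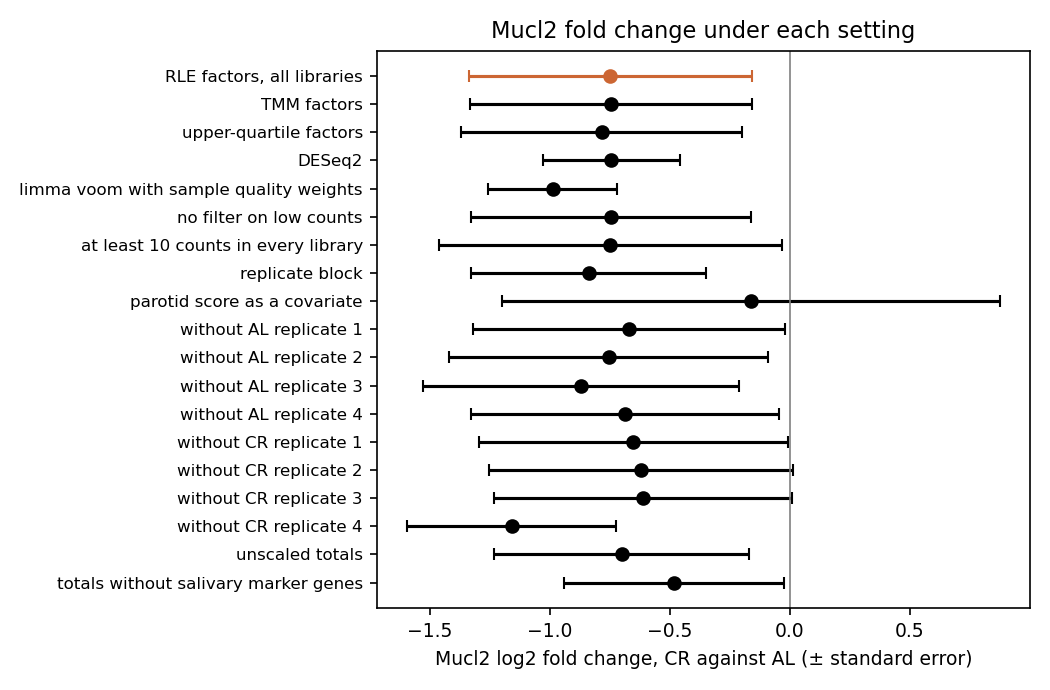
Log2 fold change of Mucl2, CR against AL, with its standard error, for the reported fit (orange) and the 18 alternatives that gave a value (black). Every point lies left of 0, from -1.16 without CR replicate 4 to -0.16 with the parotid score as a covariate.

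Some transcripts of the gland had nearly the same profile across the libraries as Mucl2. The genes with the profile most like that of Mucl2, by the root-mean-square difference of centred log2(CPM + 1) over 8 libraries, were Sval2 (0.164), Unc13b (0.169) and Ero1lb (0.172), against a median of 0.673 over 10471 genes. Sval2 stood at 4085, 2498, 2443 and 2857 CPM in AL 1 to 4 and at 1485, 1190, 1238 and 3167 CPM in CR 1 to 4. As with Mucl2, CR 1 to 3 lay under every AL library and CR 4 did not. Pax6, the eye-field transcription factor that marks lacrimal epithelium, ranked 26 on the same measure (0.234). It stood at 59.9, 72.0, 50.01 and 89.0 CPM in AL 1 to 4 and at 25.1, 34.2, 33.8 and 75.8 CPM in CR 1 to 4 (log2 fold change -0.68, edgeR adjusted p = 0.3). Not all lacrimal markers had this profile. Sox10, a transcription factor of the secretory cells named here because it goes the other way, stood at 15.1, 17.9, 16.2 and 11.9 CPM in AL 1 to 4 and at 85.6, 68.4, 88.0 and 26.3 CPM in CR 1 to 4, and it was called higher (log2 fold change 2.13, edgeR adjusted p = 0.00746). Barx2 also lay higher in each CR library than in any AL library (log2 fold change 1.53, adjusted p = 0.0753). Whether the Sox10 and Barx2 RNA came from lacrimal or from parotid cells was not tested. The points share libraries and depth, so these likenesses are descriptions.

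Relative to Pax6 and Obp1a, which are 2 of the 4 lacrimal markers with a negative log2 fold change, the Mucl2 values of the diets overlapped. No ratio was taken to the 4 lacrimal markers with a positive log2 fold change, Sox10, Barx2, Aqp5 (0.31) and Bhlha15 (0.22). The overlap is therefore shown for Pax6 and Obp1a only, and not for the lacrimal epithelium as a whole. AL 1 to 4 had 2616, 1869, 2030 and 1729 Mucl2 counts per Pax6 count. CR 1 to 4 had 2625, 1752, 1718 and 1871. The ranges lie on each other, with a mean of 2061 ± 390 in AL and 1992 ± 427 in CR (SD, n = 4 each). This ratio was chosen after its values were seen. As Pax6 has a profile like that of Mucl2, the ratio is a description with no test. Its mean log2 value in CR minus AL was -0.05, and log2 differences between a CR and an AL library ran from -0.61 to 0.60. Per Obp1a count, Mucl2 had 0.984, 0.911, 0.633 and 0.944 counts in AL 1 to 4 and 0.733, 0.898, 0.984 and 0.930 in CR 1 to 4. The parotid score was higher in every CR library than in any AL library, at 6.92, 4.54, 5.42 and 0.98 in AL 1 to 4 and at 11.64, 12.94, 9.81 and 9.14 in CR 1 to 4. Bpifa2, the most counted parotid marker, stood at 167790, 165020 and 151040 CPM in CR 1 to 3, where Mucl2 was lowest, and at 13685 CPM in CR 4, within its AL range of 190 to 17725 CPM. The part of the parotid transcripts in the Mucl2 difference was not tested beyond the fits with the covariate and with totals that leave out the salivary markers, given above. In RNA of a whole gland, fewer cells that make Mucl2 and less Mucl2 RNA per cell cannot be told apart.

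**Figure D3:**
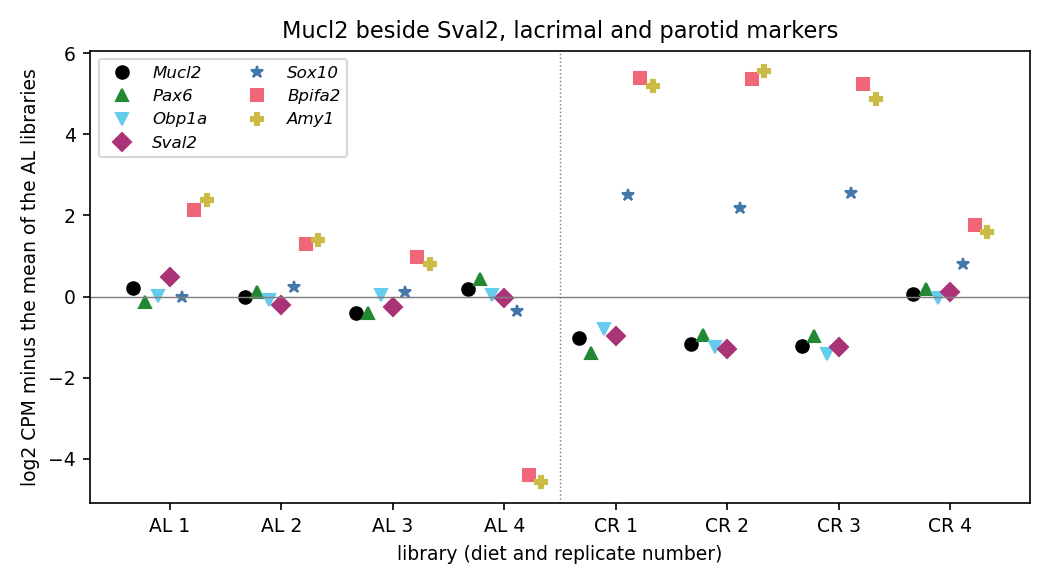
Log2 CPM of Mucl2, of its nearest profile Sval2, of the lacrimal markers Pax6, Obp1a and Sox10 and of the parotid transcripts Bpifa2 and Amy1 in each library, minus the gene's mean over the 4 AL libraries. In CR 1 to 3 Mucl2, Sval2, Pax6 and Obp1a sit below 0, Sox10 above 0 and the parotid transcripts above 4. In CR 4 Mucl2, Sval2, Pax6 and Obp1a sit near 0.

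Mucl1 was rarely counted, though often enough to be tested. It had 35, 14, 37 and 9 counts in AL 1 to 4, or 2.69, 0.858, 2.69 and 0.456 CPM. It had 24, 10, 33 and 18 counts in CR 1 to 4, or 1.70, 0.591, 2.04 and 0.999 CPM. All CR libraries lay within the AL range. The means were 1.68 ± 1.19 CPM in AL and 1.33 ± 0.66 CPM in CR (SD, n = 4 each), and the log2 fold change was -0.32 (SE 0.62, 95% interval -1.66 to 1.03, edgeR adjusted p = 0.864). Its sign changed with the processing, to 0.18 in limma voom, to 0.02 without AL 1, to 0.01 without AL 3 and to 0.02 with totals that leave out the salivary markers, so no direction is given. With the parotid score as covariate it was -1.73 (SE 1.14). The ratio of Mucl1 to Mucl2 counts differed 11.9-fold between its lowest library, AL 4, and its highest, CR 3. Given the likeness of the transcripts, the Mucl1 counts are uncertain, and whether reads of Mucl2 were counted among them was not tested. The profiles most like that of Mucl1 were those of Dcbld2 (0.157), Atad3a (0.170) and Cnp (0.172), against a median of 0.594 over the same genes.

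The transmembrane mucins were near the floor. Muc1 (Gene ID 17829), the widespread membrane mucin of glandular epithelia, had 0, 21, 4 and 4 counts in AL 1 to 4 and 0, 7, 7 and 11 in CR 1 to 4. Both groups hold a library at 0, and AL 2 is the highest. The means were 0.445 ± 0.574 CPM in AL and 0.364 ± 0.258 CPM in CR (SD, n = 4 each, exact permutation test, two-sided, p = 0.886, adjusted over 3 members 0.943). Muc20 had 4, 14, 14 and 0 counts in AL 1 to 4 and 7, 5, 13 and 10 in CR 1 to 4. Its CR libraries lay within the AL range, with means of 0.546 ± 0.475 CPM (AL) and 0.537 ± 0.209 CPM (CR) and an exact permutation p of 0.943 (adjusted 0.943). Muc13, known from the epithelium of the gut, was at 0 in all 4 AL libraries and had 7, 3, 0 and 0 counts in CR 1 to 4, which is 10 counts in all. With counts in 2 libraries only, a test of the diets says nothing for Muc13.

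The remaining members were hardly detected. Muc4, the large membrane mucin that partners with Erbb receptors, had 4 counts in AL 4 and 5 in CR 3 and was at 0 in the other 6 libraries. Muc15 had 1 count, in CR 1. Muc5b, a gel-forming mucin, had 0 counts in all 8 libraries, which allows a level of up to 0.152 to 0.231 CPM per library. At this depth no difference between the diets was detectable for Muc4, Muc5b and Muc15. Keratins and other markers of the ocular surface, from which membrane mucins could also come, summed to at most 0.582 CPM in AL and to 0.166 to 1.18 CPM in CR.

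**Figure D4:**
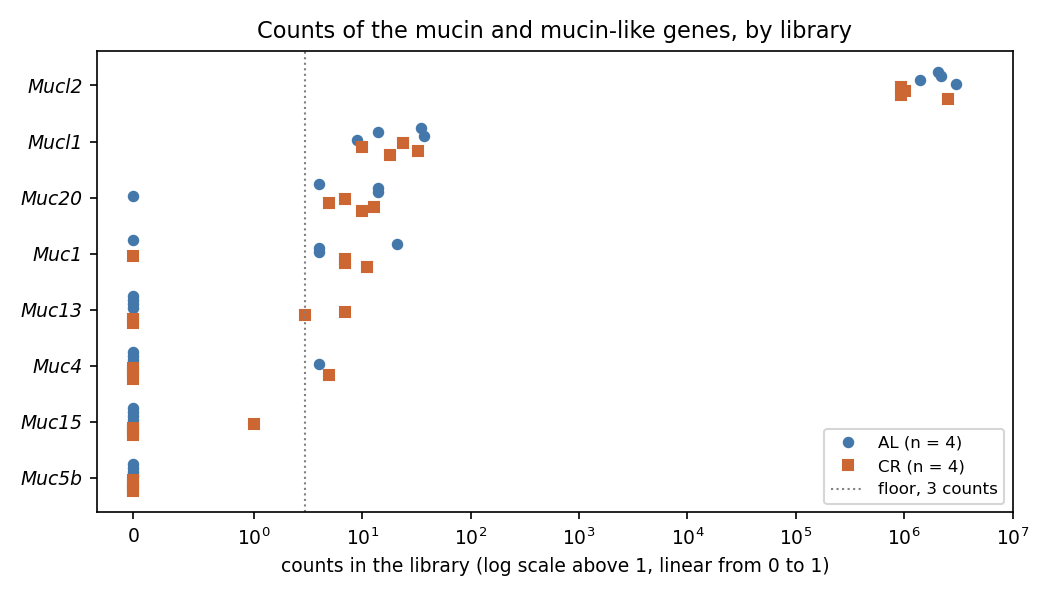
Counts of the 8 members with a row in each AL (circles) and CR (squares) library, on an axis that is linear from 0 to 1 and logarithmic above. Mucl2 lies between 931943 and 3037356 counts, Mucl1 between 9 and 37, and the Muc genes between 0 and 21. The dotted line is the floor of 3 counts.

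Other genes of the mucin pathway gave the setting of these levels. They were followed in 5 lists of 76 genes in all, of which 42 were tested and 2 called, Galnt3 and Creb3l1, beside 1.98% of all genes tested. With the replicate number as a block, 11 were called, and without CR 4 also 11. Over all genes tested the block raised the number called from 222 to 700. The median log2 fold change of all genes was 0.01.

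Most other genes named as mucins or sialomucins were also sparse, the exception being Cd164, a sialomucin of many cell types, at 91.4 to 174 CPM in AL and 95.7 to 231 CPM in CR (log2 fold change 0.26, edgeR adjusted p = 0.715). Of 15 listed, 10 had a row and 3 were tested, all 3 with a positive log2 fold change (median 0.61) and 0 called (edgeR, 1 at an unadjusted p under 0.05). Muc6 was at 0, and Muc2, Muc5ac and Muc19 had at most 3 counts in any library, so no gel-forming mucin was detected above the floor. Emcn, the endomucin of capillary endothelium, stood at 0.920 ± 0.163 CPM in AL and 1.86 ± 0.620 CPM in CR without overlap (log2 fold change 1.01, edgeR adjusted p = 0.266). With the parotid covariate the estimate for Emcn was 0.11 (SE 0.92). Podxl, the sialomucin of podocytes and endothelium, had a log2 fold change of 0.61 (adjusted p = 0.474), which was 0.37 without AL 3 and 1.01 with totals that leave out the salivary markers. Prol1 and Ovgp1 were too rare for the test and are named because of their values. Prol1 had 2, 8, 3 and 0 counts in AL 1 to 4 and 44, 96, 52 and 12 in CR 1 to 4. Ovgp1, the oviductal mucin-like glycoprotein, had 3, 7, 0 and 11 counts in AL 1 to 4 and 32, 36, 45 and 8 in CR 1 to 4. For both, CR 4 is the lowest CR library, as it is for the sum of the parotid markers and not for each of them.

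Enzymes that start O-glycans on serine and threonine and build their cores were expressed. Of 19 listed, 13 were tested, 7 with a positive and 6 with a negative log2 fold change (median 0.10), and 1 was called higher, with 8 at an unadjusted p under 0.05. Galnt3, a GalNAc transferase, stood at 31.2, 39.3, 22.8 and 42.0 CPM in AL 1 to 4 and at 79.8, 94.9, 80.8 and 63.1 CPM in CR 1 to 4. Each CR library was above each AL library, as it was for 4 of the 6 parotid markers. Galnt3 rose by a log2 fold change of 1.23 (SE 0.21, edgeR adjusted p = 0.0161). The call was lost at a like fold without AL 1 (1.20, adjusted p = 0.0604), without CR 2 (1.15, adjusted p = 0.0655) and without CR 3 (1.23, adjusted p = 0.0552). Where the parotid score was a covariate, the estimate was 1.43 with a larger SE of 0.44 (adjusted p = 0.362). Galnt6, another transferase of this family, stood at 2.39, 1.29, 1.53 and 0.608 CPM in AL 1 to 4 and at 13.5, 11.6, 6.62 and 1.39 CPM in CR 1 to 4. Here CR 4 lay within the AL range, as its Bpifa2 and Amy1 did and the other 4 parotid markers did not (log2 fold change 2.53, SE 0.61, adjusted p = 0.0555). With the block Galnt6 was called (2.32, adjusted p = 0.0017), as it was without CR 4 (2.89, adjusted p = 0.00174). It was also called in DESeq2, without the filter and with totals that leave out the salivary markers. A fit with the parotid score as covariate gave -0.29 with an SE of 0.90, so that fit gives no direction.

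Of the listed enzymes that cap the chains with sialic acid and supply it, none was called in the reported edgeR fit. St3gal6, a sialyltransferase outside the list, was called higher in CR there (log2 fold change 3.82, adjusted p = 0.03345). The listed fucosyl- and sulfotransferases Fut1, Fut2 and Chst4 were too rare to test. Of 12 listed, 8 were tested, 4 in each direction (median 0.05), with 3 at an unadjusted p under 0.05 in edgeR. St6galnac2, a sialyltransferase, stood at 6.27 ± 1.96 CPM in AL and 2.63 ± 0.839 CPM in CR (log2 fold change -1.25, adjusted p = 0.0731), and it was called with the block (adjusted p = 0.0195) and in DESeq2 (adjusted p = 0.0168). St6galnac1, the sialyltransferase that caps the first sugar, stood at 5.35 ± 1.47 CPM in AL and 2.71 ± 0.324 CPM in CR (log2 fold change -0.98, adjusted p = 0.107). In both, the CR libraries lay below all AL libraries.

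The mucous cell program was only partly present. Of 17 listed genes, 5 were tested, 2 with a positive and 3 with a negative log2 fold change (median -0.45), with 2 at an unadjusted p under 0.05. The goblet cell factors Foxa2 and Foxa3, the trefoil peptides Tff1, Tff2 and Tff3, and Agr3, Zg16 and Clca1 had 0 counts in every library. Other genes of the program were present in every library, namely the factors Spdef and Foxa1, at 4.66 to 14.5 and 3.96 to 33.5 CPM, and the folding factor Agr2, at 39.6 to 226 CPM. Creb3l1, a membrane-bound transcription factor of secretory cells, stood at 22.6, 27.1, 19.6 and 36.0 CPM in AL 1 to 4 and at 71.4, 103.4, 94.2 and 79.3 CPM in CR 1 to 4. The groups do not overlap, and CR 4 is as high as the other CR libraries. Creb3l1 rose by a log2 fold change of 1.72 (SE 0.22, edgeR adjusted p = 0.00389). It was called in 18 of 19 alternatives, the exception being the parotid score as a covariate (2.22, SE 0.41, adjusted p = 0.149). Fcgbp, a mucus protein that binds immunoglobulin, stood at 29.3 ± 6.29 CPM in AL and 16.3 ± 9.30 CPM in CR (log2 fold change -0.84, adjusted p = 0.196). Fcgbp was called without CR 4 (-1.32, adjusted p = 0.00368) and in limma voom (-1.20, adjusted p = 0.0298). Its estimate was 0.06 with the parotid covariate, with an SE of 0.55.

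Proteins known to act with membrane mucins, such as sheddases, cytoskeletal linkers and galectin-3, were all expressed. All 13 listed were tested, 2 with a positive and 11 with a negative log2 fold change (median -0.48), with 4 at an unadjusted p under 0.05 and 0 called. Ezr, which links membrane proteins to actin, stood at 28.6 ± 5.93 CPM in AL and 18.5 ± 2.52 CPM in CR (log2 fold change -0.63, edgeR adjusted p = 0.115, and -0.32 with totals that leave out the salivary markers). Lgals3, the galectin that binds mucin sugars, stood at 30.4, 37.1, 83.1 and 39.3 CPM in AL 1 to 4 and at 29.1, 16.6, 29.4 and 23.8 CPM in CR 1 to 4. AL 3 is the highest, and the groups do not overlap. Its log2 fold change was -0.94 (adjusted p = 0.135), -0.53 without AL 3 and -0.87 with the block, where it was called (adjusted p = 0.0312), as it was in DESeq2 (adjusted p = 0.0492). Markers of leukocytes, cells that also make Lgals3, summed to 132 to 440 CPM in AL and 68.3 to 97.0 CPM in CR, and their part in the difference was not tested.

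**Figure D5:**
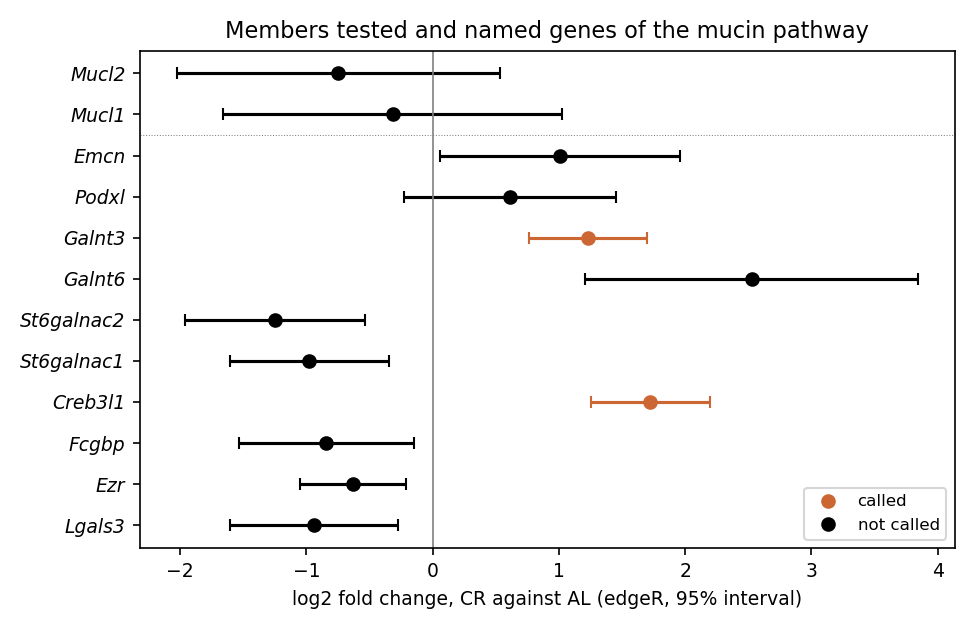
Log2 fold change, CR against AL, with its 95% interval from edgeR, for the 2 members tested (above the dotted line) and the 10 named genes of the pathway lists. Galnt3 (1.23) and Creb3l1 (1.72), in orange, were called, and the intervals of Mucl2 and Mucl1 include 0.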

How the data were processed

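The authors made libraries of 3′ ends from the LG RNA of 8 mice and sequenced them. Per the study's methods and the submitters' processing notes, reads were trimmed with cutadapt, aligned to mm10 with STAR and counted per gene with HTSeq, and the authors deposited these counts. A table of log2 values, which the authors derived from those counts with DESeq2's RLE factors, was not used further. After 5 repeated symbols were dropped, 24552 genes remained. The diets were compared in R 4.3.3 with edgeR 4.0.16, using RLE factors, filterByExpr, quasi-likelihood tests and Benjamini-Hochberg adjustment over 11211 genes. A call needs an adjusted p below 0.05 and a 1.5-fold change, as in the study. Members that the filter dropped but that had at least 10 counts in all were compared by exact permutation tests of CPM. The pipeline was tested on simulated data.

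Libraries with the same replicate number deviated together from their group means (correlations 0.208, 0.114, 0.298 and 0.535 for numbers 1 to 4), so a block for the number was tried. For AL 3 the CR library with the highest correlation was not CR 3. The labels do not say what the number marks or that libraries came from separate cages, so p-values measure the spread between these libraries. Other alternatives were DESeq2 1.42.0, voom of limma 3.58.1 with sample weights, TMM or upper-quartile factors, no filter, a minimum of 10 counts in each library, no fold threshold, the parotid score as a covariate, leaving out the 50 most counted genes or each library in turn, and, added after the data were seen, unscaled totals, totals without salivary marker genes and the Mucl2 to Pax6 ratio. Members and gene lists were chosen with earlier results of these data known. Genes named by rule are the members, the called genes and the 2 genes with the lowest p of each pathway list, and the 3 profiles nearest to each tested member. Other genes, such as Cd164, Prol1, Ovgp1, St3gal6, Sox10, Barx2 and further marker or list genes, are named outside this rule with their values known. Sequences and positions come from GENCODE vM21 on GRCm38 and gene types from RefSeq.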

Additional observations from a re-analysis of the deposited data

Results flagged for a closer look

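The Mucl2 level of CR 4, 141920 CPM, stood far from those of the other CR libraries (a gap of 0.907 of the group's range, past Dixon's 95% critical value). The same rule marked Muc4 in AL 4 (0.203 CPM, 4 counts) and in CR 3 (0.309 CPM, 5 counts) and Muc15 in CR 1 (0.0707 CPM, 1 count). In those groups all other libraries are at 0, so any count there is marked and the marks say nothing more. For values above 0, such as those of Mucl2, chance marks about 1 in 20 groups.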

How the results depend on the processing

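No member was called under any of the 19 alternatives. The number of genes called among all tested, 222 in the report, was 729 with DESeq2, 397 with limma voom, 436 without the filter, 700 with the replicate block, 4 with the parotid covariate and 341 with totals that leave out the salivary markers, and ranged from 61 (without AL 2) to 700 (without CR 4) when 1 library was left out. The pathway genes called, 2 in the report, numbered 13, 5, 7, 11, 0 and 6 under the same alternatives, and from 1 to 11 when 1 library was left out. The share of calls higher in CR was 60.4% in the report, 70.7% with unscaled totals and 89.2% with totals that leave out the salivary markers. The replicate block changed no call among the members, and among the named genes it added Galnt6, St6galnac2 and Lgals3.

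Mucl1 turned to 0.18 in limma voom and to 0.0207 with totals that leave out the salivary markers, and ranged from -0.64 to 0.02 (0.0182 without AL 1, 0.0125 without AL 3) when 1 library was left out. With the parotid covariate Galnt6 turned to -0.29 (SE 0.90) and Fcgbp to 0.0558 (SE 0.55). The difference in Muc20 turned to 0.0367 on the log2(CPM + 1) scale and ranged from -0.191 to 0.149 CPM, that in Muc1 from -0.229 to 0.200 CPM, and the log2 ratio of Mucl2 to Pax6 from -0.19 to 0.07, when 1 library was left out. The reversed values were 0.0949, 0.149, 0.0053 and 0.0716 for Muc20 without AL 2, AL 3, CR 1 and CR 2, 0.200 and 0.0406 for Muc1 without AL 2 and CR 1, and 0.0673, 0.00067 and 0.0102 for the ratio without AL 1, CR 2 and CR 3. The causes were not tested. Mucl2 is among the 50 most counted genes and Mucl1 lacks 10 counts in 1 library, so those alternatives give them no value. With 3 against 4 libraries no exact p can fall below 0.0571, and depth limits every member but Mucl2.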
